A study of Schmidtea mediterranea with 177 samples.

Results

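The abundant transcripts that muscle and non-muscle cells of the planarian *Schmidtea mediterranea* share were examined in libraries of single cells that came from 10 slices between head and tail. The members are 100 of 26560 transcripts. They were chosen by level in both cell classes: reads were divided by the total of the cell and scaled to 1000000 (cpm), a transcript was kept where the log2 ratio of its mean cpm + 1 in muscle over non-muscle cells lay between -1 and 1, which 19356 transcripts met after 4 were left out by name, and the 100 with the highest mean natural log of cpm + 1 over all 177 cells were taken. Level and class ratio therefore chose the members and are given below as descriptions, without a test. Transcripts are called by their identifiers in the dd_Smed_v4 assembly, because only 3 of the 100 carry a name, a protein match or primers in the sources used here.

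The cells came from asexual animals of the CIW4 strain that had been starved for 7-14 days. Tissue was taken from the midline alone, and the pharynx was removed from regions 5 and 6. Non-dividing cells were sorted, amplified 1 by 1 with SmartSeq2, a full-length cDNA method without molecular identifiers, and screened for muscle markers by qRT-PCR before sequencing. The authors' labels divide them into 115 muscle cells from regions 1 (head tip) to 10 (tail tip) and 62 non-muscle cells, which come from every region except 2 and passed the same qRT-PCR screen. Non-muscle is the remainder of a screen for muscle, not a cell type.

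Planarian body wall muscle lies under the epidermis and, besides contracting, expresses secreted signals that mark positions in the body. Planarian tissues are renewed from neoblasts, the dividing cells of the animal, which the sort for non-dividing cells was meant to leave out. Transcripts that are abundant in every cell class take up a large part of each library, and since cpm values of a cell add up to a constant, a gain of share by some transcripts lowers the cpm of all others.

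The number of reads per cell ranged from 19205 to 3884642 and its median was 259378 for muscle and 304656 for non-muscle. The labels name no animal, day or plate for a cell, so the cells of a region were summed within each class and the region, not the cell, was the sample of each test. Summed cpm of 12 muscle markers that the study chose on these cells ranged from 781 to 98875 in muscle cells (median 16690), against 4.86 to 13779 in non-muscle cells (median 172), so the ranges overlapped although the medians differed widely. The 12 epidermal lineage markers had a median of 32.8 cpm in muscle and 6743 cpm in non-muscle cells. For the 12 neoblast markers the medians were 6141 cpm in muscle and 3412 cpm in non-muscle cells. Sample titles carry a running number, and these numbers form 3 ranges, here called A, B and C from low to high, whose meaning the labels do not state. Range A holds muscle cells of regions 1 to 8 and range C of regions 5 to 10. Range B holds muscle cells of regions 1, 3, 5, 8, 9 and 10 only. Range and region thus overlap only in part.

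The sequences below are the only ones that the sources used here give for any member. They are the PCR primers of dd_Smed_v4_1_0_1 and dd_Smed_v4_4812_2_1, shown because both belong to the group of transcripts on which the results turn. The 5′ primers are an outer and an inner one and each is printed 5′ to 3′, with no letters capitalised.
dd_Smed_v4_1_0_1, 5′ outer: caaaactgaggaattggcaaatg
dd_Smed_v4_1_0_1, 5′ inner: cagtcgctttagaaaacgca
dd_Smed_v4_1_0_1, 3′: ctacaatccacagaagccgc
dd_Smed_v4_4812_2_1, 5′ outer: tgcttgtttgtaaattttggcgc
dd_Smed_v4_4812_2_1, 5′ inner: acatgatgcattggggtatga
dd_Smed_v4_4812_2_1, 3′: ggtgccatgttggagcca

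The 100 transcripts held about 3 in 10 reads of a typical cell. Their share of the reads ranged from 9.42% to 80.4% among muscle cells (median 28.3%), against 12.4% to 74.3% among non-muscle cells (median 31.7%). The share was above 50% in 13 of 115 muscle cells and in 15 of 62 non-muscle cells. More than 2 reads were found for 41 of the 100 in each of the 177 cells, and at least 1 read for 56 of them. These values describe counts of amplified molecules, and the counting error of a single read number does not cover amplification.

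The most abundant member was dd_Smed_v4_1635_1_1, which has no annotation in the sources used here. It had 2356 to 222839 cpm in muscle cells (median 26121), against 2761 to 215450 cpm in non-muscle cells (median 34103). Its lowest and highest cells therefore differed by about the same factor in both classes, and the classes overlapped over nearly the whole range. The mean was 43891 ± 47220 cpm in muscle and 64040 ± 63433 cpm in non-muscle cells (SD over 115 and 62 cells, which are not replicates). Next came dd_Smed_v4_300_0_1 with a median of 17754 cpm in muscle and 20516 cpm in non-muscle cells. The third, dd_Smed_v4_258_0_1, had 399.4 to 46028 cpm in muscle (median 20684) and 1509 to 87297 cpm in non-muscle cells (median 20409). Medians of the remaining 7 of the first 10 in muscle and non-muscle cells were 17539 and 18943 cpm for dd_Smed_v4_957_0_1, 12054 and 14605 cpm for dd_Smed_v4_297_0_1, and 13088 and 11079 cpm for dd_Smed_v4_753_0_1. For dd_Smed_v4_344_0_1 they were 10050 and 8424 cpm, for dd_Smed_v4_15_0_1 5611 and 7385 cpm, for dd_Smed_v4_5257_0_1 4221 and 7029 cpm, and for dd_Smed_v4_292_0_1 6164 and 5343 cpm.

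At the limits of the rule, the last transcript taken was dd_Smed_v4_82_0_1 with a mean ln(cpm + 1) of 5.78, after dd_Smed_v4_996_0_1 with 5.79, and the first left out was dd_Smed_v4_510_0_1 with 5.77. The highest class ratio kept was that of dd_Smed_v4_4621_0_1 with a log2 ratio of 1.00, and the lowest was that of dd_Smed_v4_320_0_1 with -0.97. Just outside lay dd_Smed_v4_1760_1_1 with 1.08 and dd_Smed_v4_68_0_1 with -1.11. Of the transcripts at or above the level of the last member, 7 were left out as higher in muscle, 1 as higher in non-muscle and 1 by name. The ratio was above 0 in 39 of the 100, and the median log2 ratio was -0.17.

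**Figure D1:**
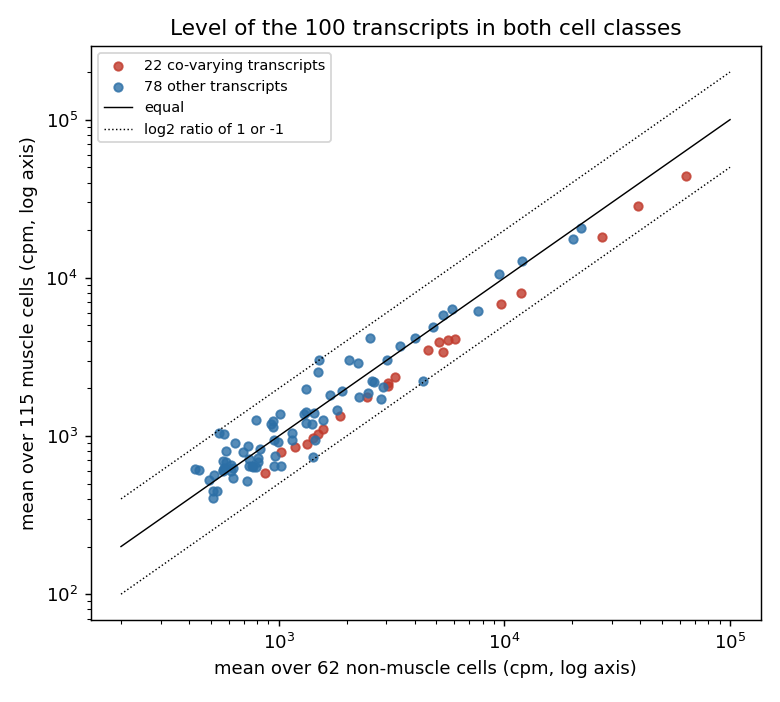
Mean level of each of the 100 transcripts in muscle cells (vertical axis, cpm, log scale) against non-muscle cells (horizontal axis, cpm, log scale), with the 22 transcripts that vary with the top member in red and the other 78 in blue. Solid and dotted lines mark equal levels and log2 ratios of 1 and -1, which the rule used, and all 22 red points lie below the line of equal levels.

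The members did not vary independently of each other. Over the 177 cells, 21 transcripts correlated with dd_Smed_v4_1635_1_1 at a Pearson r of ln(cpm + 1) between 0.79 and 0.99 (median 0.95). No other member reached more than 0.54 over all cells, the value of dd_Smed_v4_957_0_1. The gap was less clear within ranges A, B and C alone. There the highest other members reached 0.45, 0.73 and 0.70, and the lowest of the 21 had 0.44, 0.74 and 0.89. Together with the top member, these 21 are the 22 co-varying transcripts. The group was set at an r of 0.7 after the values had been seen, so nothing is tested on its choice. Over all transcripts, 58 reach that r, and the median r of the 16673 that had above 2 reads in 3 or more cells was -0.08. The points share libraries and totals, so these correlations are descriptions of these cells.

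**Figure D2:**
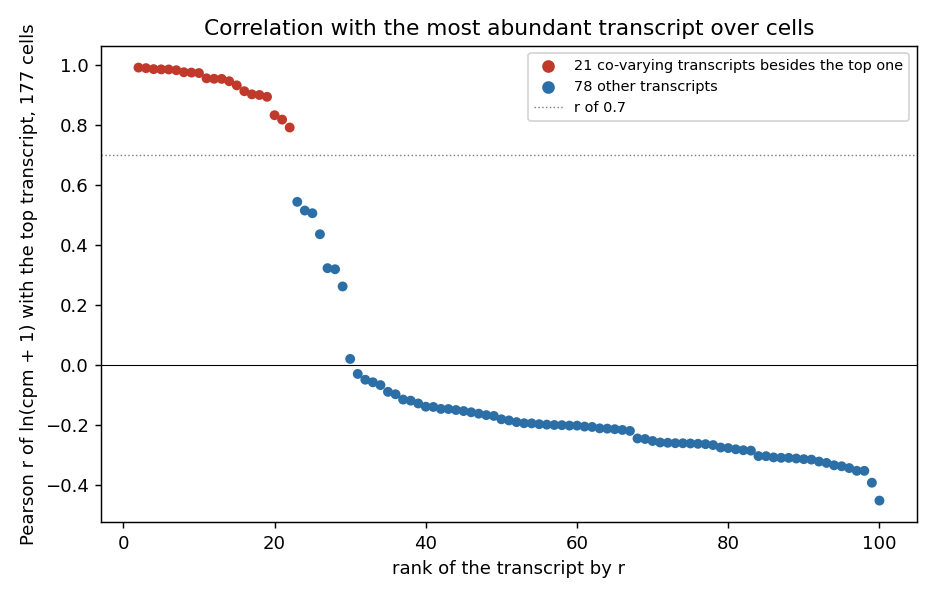
Pearson r of ln(cpm + 1) over 177 cells between each member and the most abundant one (vertical axis), with members ranked by r (horizontal axis) and the limit of 0.7 dotted. The 21 co-varying transcripts (red) lie between 0.79 and 0.99 and the 78 others (blue) between -0.45 and 0.54.

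The co-varying transcripts differed in how closely they kept their proportion to the top member. As a percentage of the reads of dd_Smed_v4_1635_1_1 in the same cell, dd_Smed_v4_1754_0_1 lay between 6.30% and 9.34% in the middle 8 of 10 cells, with a median of 7.70%. For dd_Smed_v4_31_0_1 the same range was 11.0% to 18.4% (median 14.2%), and for dd_Smed_v4_8541_1_1 it was 1.53% to 2.48% (median 1.90%). These are 3 of the narrowest ranges of the group. The widest was that of dd_Smed_v4_2126_0_1, from 0.65% to 5.10% (median 1.19%), followed by dd_Smed_v4_469_0_1 with 1.37% to 7.02% (median 2.18%). For dd_Smed_v4_289_0_1 the middle cells lay between 7.16% and 24.1% (median 10.2%), but the highest cell reached 494.7%. Outside the group, dd_Smed_v4_258_0_1 lay between 7.74% and 439.6%. The median r with the top member within the group was 0.94 in muscle and 0.97 in non-muscle cells, and 0.91, 0.96 and 0.97 in cell number ranges A, B and C. The lowest values within range A were 0.44 for dd_Smed_v4_2126_0_1 and 0.52 for dd_Smed_v4_668_0_1. With totals that leave out the reads of the group itself, the median r between pairs of the group was 0.93, against 0.90 with all reads.

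All 22 had a log2 ratio below 0, between -0.65 and -0.37 in muscle over non-muscle, whereas 39 of the 78 others had one above 0. Since the ratio was part of the rule, these counts are a description. The 22 held from 1.01% to 69.4% of the reads of a muscle cell (median 8.71%), against 1.34% to 62.9% of a non-muscle cell (median 11.5%). The 78 others held a much narrower share, from 6.03% to 26.8% in muscle (median 18.3%) and from 6.24% to 29.4% in non-muscle cells (median 17.5%). The spread of the total share among cells therefore came mainly with the 22.

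Share and depth moved together. Over the 115 muscle cells the share of the 22 correlated with log10 of the reads at a Pearson r of -0.42 and with the number of transcripts with more than 2 reads at -0.51. Over the 62 non-muscle cells the values were -0.56 and -0.64. For the 78 others they were 0.07 and -0.07 in muscle, and 0.41 and 0.34 in non-muscle cells. As a share of the reads left after those of the 22 were taken out, the 78 others gave -0.20 and -0.42 in muscle, and -0.19 and -0.34 in non-muscle cells, so that the sign in non-muscle cells depends on the total used. Cells with a larger share of the 22 thus tended to have fewer reads and fewer transcripts found, with exceptions. A muscle cell of region 9 held 67.7% with 298368 reads, and a non-muscle cell of region 9 held 62.9% with 363510 reads. Both were deeper than the median cell of their class. The part of depth in the share was not tested.

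**Figure D3:**
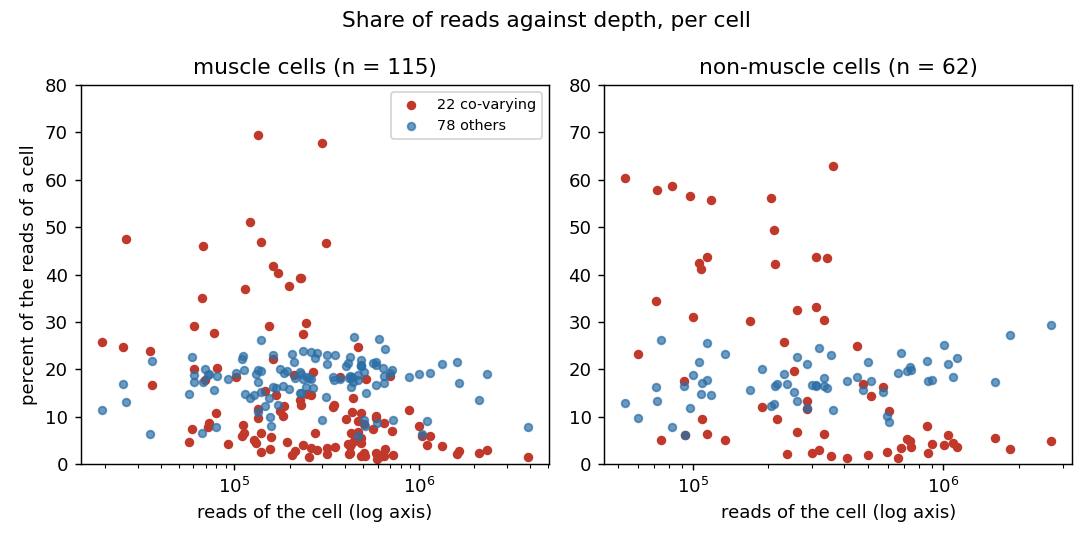
Percent of the reads of a cell held by the 22 co-varying transcripts (red) and by the 78 others (blue), against the reads of the cell on a log axis, for muscle cells (left, n = 115) and non-muscle cells (right, n = 62). The red points span 1.01% to 69.4% in muscle and the highest lie mostly among shallower cells, while the blue points stay below 30%.

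The share of the 22 also differed between the cell number ranges. In muscle cells its median was 4.45% in range A (n = 55), 9.66% in range B (n = 24) and 18.2% in range C (n = 36). In non-muscle cells it was 3.99% in range A (n = 16), 12.0% in range B (n = 17) and 31% in range C (n = 29). For dd_Smed_v4_1635_1_1 alone the medians in ranges A, B and C were 11073, 32686 and 54262 cpm in muscle cells, against 10163, 39487 and 98722 cpm in non-muscle cells. The order of the ranges was the same in both classes, and what the ranges stand for cannot be told from the labels. The share of the 78 others changed little, with medians of 19.4%, 18.2% and 16.1% in muscle and 18.7%, 17% and 16.7% in non-muscle cells.

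Along the axis, the share of the 22 was highest in muscle cells of region 9. The region medians in muscle, from region 1 to region 10, were 3.31%, 5.0%, 5.69%, 4.42%, 7.49%, 11.0%, 17.8%, 7.97%, 41.7% and 3.97%. In non-muscle cells the highest medians were 55.7% in region 3 (3 cells), 41.1% in region 9 (5 cells) and 34.4% in region 7 (11 cells), and the lowest was 2.18% in region 5 (6 cells). Region 10, next to region 9, had a low median in muscle, but the regions differ in their mix of number ranges. Of the 12 muscle cells of region 10, 9 are of range B, whereas 8 of the 13 of region 9 are of range C. Within range B the muscle medians were 20.1% in region 9 and 2.94% in region 10, and within range C they were 46.8% in region 9 and 29.8% in region 10. The range C medians of regions 5 to 8 were 13.5%, 10.2%, 29.1% and 18.3%, so within range C region 10 (3 cells) was not low. Depth differed as well. The 12 muscle cells of region 10 had 16493156 reads in all, against 2840332 for the 13 of region 9. The parts of the ranges and of depth in the order of the regions were not tested.

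**Figure D4:**
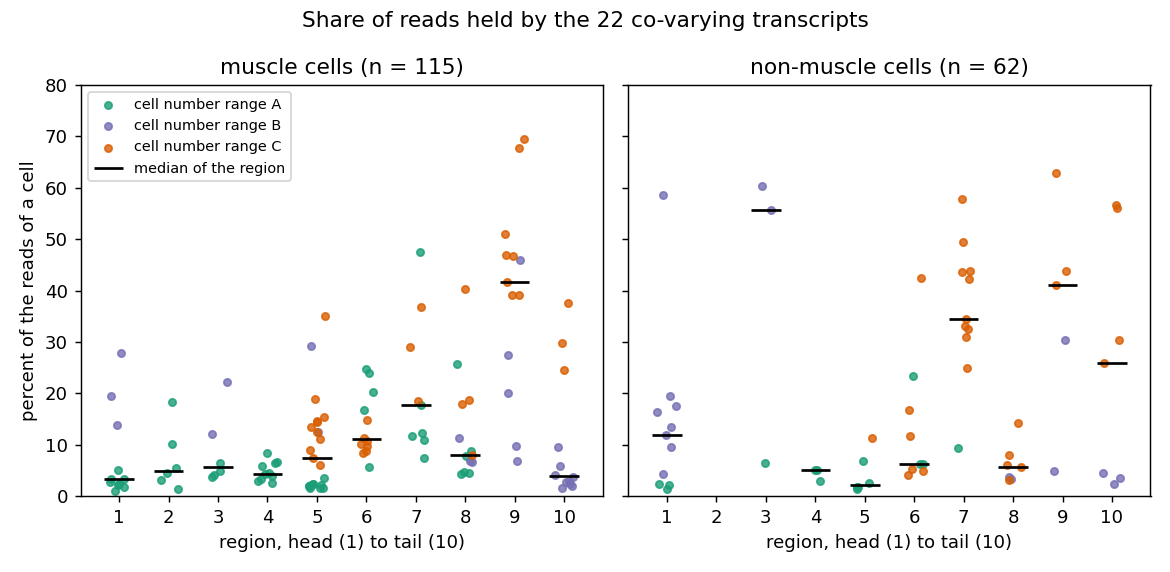
Percent of the reads of each cell held by the 22 co-varying transcripts, by region from head (1) to tail (10), in muscle cells (left) and non-muscle cells (right), with cells coloured by the range of their number and black bars at region medians. In muscle the median is 41.7% in region 9 and 3.97% in region 10, and cells of range C reach higher values than cells of range A.

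Whether the members changed from head to tail was tested as the slope of log2 expression per region on reads summed per region, with edgeR's quasi-likelihood test and Benjamini-Hochberg adjustment over all transcripts tested. This measure was not used by the rule. In muscle none of the 100 passed an adjusted p of 0.05, against 2 of 13570 transcripts in all (0.0147%). DESeq2, which called 150 of 11991 transcripts (1.25%), and limma on mean log2(cpm + 1) of the cells, which called 18 of 13570 (0.133%), also called none of the 100. An unadjusted p under 0.05 was found for 34 of the 100, 28 with a positive and 6 with a negative slope, against 702 of 13570 transcripts (5.17%). DESeq2 gave 22 such members, against 9.67% of all transcripts, and limma gave 20, against 5.41%. Of these, 21 with DESeq2 and 15 with limma were co-varying transcripts. All 22 co-varying transcripts were among the 34 and had a positive slope, but since they vary together they do not amount to 22 separate results.

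Slopes of the 22 in muscle ranged from 0.23 to 0.42 log2 units per region (median 0.34), while those of the 78 others ranged from -0.13 to 0.40 (median 0.04) and the median of all transcripts tested was 0.03. The lowest p was that of dd_Smed_v4_185_0_1. Its summed reads gave 1349, 632, 1025, 968, 1861, 3043, 4553, 4608, 7314 and 1654 cpm in muscle from region 1 to region 10. Levels were thus low at the front, highest in region 9 and low again in region 10. The slope was 0.39 ± 0.08 (SE) with an adjusted p of 0.169 by edgeR.

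For dd_Smed_v4_1_0_1, which has no protein match, the summed muscle levels were lowest in region 2 (322 cpm) and highest in region 9 (5452 cpm), with 629 cpm in region 10, and the slope was 0.42 ± 0.09 (adjusted p = 0.32, edgeR). The match of dd_Smed_v4_4812_2_1 is LPCAT1, which in humans is an enzyme that adds a fatty acid chain to lysophosphatidylcholine in membrane lipid remodelling. It had 174 cpm in region 2, 2398 cpm in region 9 and 288 cpm in region 10 of muscle, with a slope of 0.39 ± 0.10 (adjusted p = 0.32, edgeR). Slopes of dd_Smed_v4_23_0_1 and dd_Smed_v4_668_0_1, the other transcripts of lowest p, were 0.33 ± 0.08 and 0.35 ± 0.09. All of them had the same profile, with region 9 highest.

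Region 10, whose muscle sum was also the deepest, decided this count. Without region 10, 20 of the 100 passed the adjusted threshold in muscle, all 20 of them among the 22 co-varying transcripts, and 30 transcripts passed in all. Without region 9, none passed and the median slope of the 22 was 0.20. With the cell number range as a covariate, on 20 sums by region and range, the median slope of the 22 was 0.11. In that fit 1 of 22 had an unadjusted p under 0.05, against 952 of 13570 transcripts. Within ranges A, B and C alone, on 8, 6 and 6 region sums, the medians were 0.28, -0.13 and 0.53. Ranges A and C cover different regions, so range and region cannot be fully told apart.

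The members with the lowest p among negative slopes in muscle lay outside the group. Levels of dd_Smed_v4_344_0_1 were highest in region 2 (18452 cpm) and lowest in region 9 (3299 cpm), and its slope was -0.12 ± 0.05 (adjusted p = 0.77, edgeR). For dd_Smed_v4_292_0_1 the highest and lowest regions were again 2 and 9 (12385 and 2042 cpm), with the same slope of -0.12 ± 0.05. The match of dd_Smed_v4_1999_0_1 is RKHD1, a protein with a RING finger and KH domains, which bind RNA, and the study placed it among its neoblast markers on these cells. Its highest level was 4744 cpm in region 2 and its lowest 916 cpm in region 9, and its slope of -0.13 ± 0.05 did not pass (adjusted p = 0.82, edgeR). For dd_Smed_v4_282_0_1 and dd_Smed_v4_1258_0_1 the slopes were -0.12 ± 0.05 and -0.12 ± 0.06. The cpm levels share a total, of which the 22 held 34.8% in region 9 of muscle and 4.6% in region 2. In a fit added later, the 58 transcripts with an r of 0.7 or more were taken out of the table. There 16 of the 78 others had an unadjusted p under 0.05 by edgeR, 10 rising and 6 falling, against 667 of 13512 transcripts. With DESeq2, and by edgeR without region 2, no member had a negative muscle slope with an unadjusted p under 0.05. The slopes named here stayed below 0 with library size alone in place of TMM. The number of slopes below 0 did depend on this scaling. With library size alone, 49 instead of 80 of the 100 had a positive slope. The 31 members that changed sign, none of them of the 22, went from a positive to a negative slope.

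**Figure D5:**
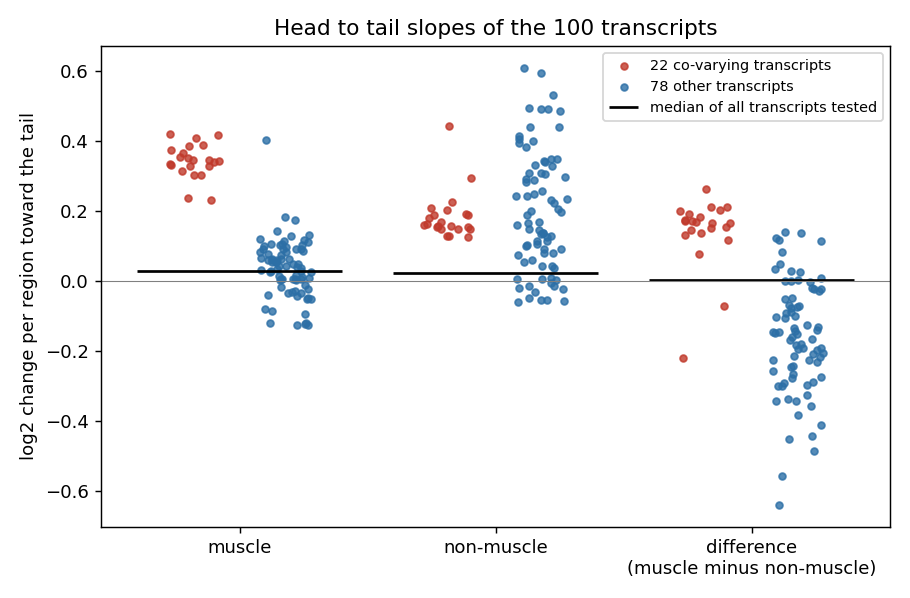
Slope of log2 expression per region toward the tail for the 22 co-varying (red) and 78 other (blue) transcripts in muscle, in non-muscle and as the difference of muscle minus non-muscle, with black bars at the median of all transcripts tested. The red points in muscle lie between 0.23 and 0.42, above the median of all transcripts of 0.03.

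In non-muscle cells none of the 100 passed either, against 5 of 13349 transcripts (0.0375%). DESeq2 called none of them, against 1.86% of all transcripts, and limma called no transcript (0%). An unadjusted p under 0.05 was found for 16 members, all with a positive slope, against 991 of 13349 transcripts (7.42%). DESeq2 gave 18, against 12.2% of all transcripts, and limma gave 3, against 4.3%. Here 15 of the 16 were outside the co-varying group. The largest slopes of lowest p were 0.53 ± 0.17 for dd_Smed_v4_4621_0_1 (adjusted p = 0.37, edgeR), 0.61 ± 0.20 for dd_Smed_v4_330_0_1 (adjusted p = 0.38) and 0.49 ± 0.18 for dd_Smed_v4_130_0_1 (adjusted p = 0.44). The most negative by p were dd_Smed_v4_320_0_1, dd_Smed_v4_38_0_1 and dd_Smed_v4_346_0_1, each at -0.06, with SE of 0.15, 0.16 and 0.16.

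These non-muscle slopes rest in part on 1 cell. A single library of region 9 had 2702758 reads, 74% of the reads of the 5 non-muscle cells of that region, although it held only 1799 transcripts with more than 2 reads. For dd_Smed_v4_330_0_1 the summed level was 7141 cpm in region 9 and 277 to 892 cpm in the other 8 regions, and 98.3% of its reads in region 9 came from 1 cell, while the median cell had 605 cpm. For dd_Smed_v4_130_0_1 the summed level of region 9 was 3083 cpm, 96.3% of it from 1 cell, and the median cell had 574 cpm. In 28 of the 100 members more than 90% of the region 9 reads came from 1 cell. Without region 9, 3 members had an unadjusted p under 0.05, and the median slopes were 0.07 for the 22 and 0.03 for the others, against 0.16 and 0.17 with it.

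The difference of the slopes, muscle minus non-muscle, passed for none of the 100 and for none of 15672 transcripts (0%). DESeq2 called none of the 100, against 3.15% of all transcripts, and limma called no transcript (0%). An unadjusted p under 0.05 was found for 14 members, all lower in muscle, against 1237 transcripts (7.89%). DESeq2 gave 10, against 11.4% of all transcripts, and limma gave 2, against 4.65%. The lowest p values were those of dd_Smed_v4_330_0_1 (-0.64 ± 0.19, adjusted p = 0.28, edgeR), dd_Smed_v4_420_0_1 (-0.49 ± 0.16, adjusted p = 0.32) and dd_Smed_v4_258_0_1 (-0.36 ± 0.12, adjusted p = 0.33). In the other direction they were dd_Smed_v4_2962_0_1 (0.26 ± 0.18), dd_Smed_v4_668_0_1 (0.20 ± 0.16) and dd_Smed_v4_750_0_1 (0.21 ± 0.18). In region 9, 1 non-muscle cell held over 90% of the reads of dd_Smed_v4_330_0_1, dd_Smed_v4_420_0_1 and dd_Smed_v4_258_0_1. Without that region, 3 members had an unadjusted p under 0.05, against 848 of 15672 transcripts. The median difference over the 100 was then 0.02, against -0.10 with region 9. With each cell thinned to 50000 reads none of the 100 had an unadjusted p under 0.05 for the difference, against 1050 of 15657 transcripts.

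Members differed widely in how evenly cells expressed them. The lowest SD of ln(cpm + 1) over 177 cells was 0.57 for dd_Smed_v4_10_0_1, followed by 0.58 for dd_Smed_v4_112_0_1, 0.60 for dd_Smed_v4_15_0_1, 0.61 for dd_Smed_v4_957_0_1 and 0.65 for dd_Smed_v4_130_0_1. The median over the 100 was 1.18, against 1.34 over the same 16673 transcripts as above. These medians are not matched for level. The rule took members by mean ln(cpm + 1), which favours transcripts found in every cell, so the contrast is a description only. Of these even transcripts, dd_Smed_v4_112_0_1 had 264 to 3268 cpm in muscle (median 1085), against 119 to 3210 cpm in non-muscle cells (median 867), and more than 2 reads in each of the 177 cells.

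The highest SDs were 2.20 for dd_Smed_v4_1258_0_1, 2.18 for dd_Smed_v4_34_0_1, 2.17 for dd_Smed_v4_996_0_1, 2.13 for dd_Smed_v4_731_0_1 and 2.04 for dd_Smed_v4_1140_0_1. In these the lowest cells of both classes had 0 reads, and more than 2 reads were found in 156 to 160 of the 177 cells. For dd_Smed_v4_1258_0_1 the cells ranged from 0 to 6241 cpm in muscle (median 938), against 0 to 3601 cpm in non-muscle cells (median 562.2). For dd_Smed_v4_1140_0_1 they ranged from 0 to 3607 cpm in muscle (median 911), against 0 to 2530 cpm in non-muscle cells (median 365). A cell without reads in a library of this depth is not shown to lack the transcript.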

How the data were processed

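The 177 libraries had a run of 80 and a run of 40 base reads, which the authors joined, trimmed with cutadapt and mapped with bowtie 1 to the dd_Smed_v4 assembly. Major mitochondrial and ribosomal RNA contigs were removed, isotigs were summed, and libraries under 1000 transcripts were dropped. They deposited read counts of 26560 transcripts without normalization, with CASAVA 1.7.0 among the tools of the submitters' processing notes. The deposited tables of single-cell differential expression hold the authors' own anterior against posterior ratios and were not used. The cell classes are the authors' labels.

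Counts of the cells of a region and class were summed, giving 10 muscle and 9 non-muscle sums. The fit with the cell number range as a covariate used sums by region and range. These were 20 in muscle, 17 in non-muscle and 37 for the difference, so a region could enter more than once. A transcript entered the test if 3 or more cells of the class had above 2 reads of it. Slopes were tested with edgeR 4.0.16 (R 4.3.3) after TMM normalization. Alternatives were DESeq2 1.42.0, limma 3.58.1, other scalings, no filter, cells thinned to 50000 reads (5 muscle cells are shallower), each region left out, the cell number range, and the region as a block for the difference. On simulated sums the slope test missed part of the changed transcripts and made more false calls than its threshold allows. The simulated slopes were larger than any slope of a member in muscle. How often slopes of the members' size are missed in muscle was therefore not assessed. The p-values of the main tests measure only the spread between regions. Transcripts were named by rule: the 10 highest levels, the lowest p for each slope in each direction where none passed, the 3 annotated, the 5 lowest and 5 highest SDs, and those at the limits. Members and lists were chosen with earlier results of these data known, and the group of 22 after its correlations were seen. Python 3.11.15, numpy 2.4.6, pandas 2.3.3 and matplotlib 3.10.9 were used.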

Additional observations from a re-analysis of the deposited data

Results flagged for a closer look

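Sums over regions were searched for values that lie far from the other regions of the same class, by the gap to the next value as a share of the range. Of 74 sets of region values, 28 had such a gap. By chance the limit used flags about 1 in 20 independent sets of normally distributed values. The sets here are unlogged levels of summed reads whose distribution was not checked. Nor are they independent, because the co-varying transcripts repeat each other. The 28 can therefore not be set against that rate.

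Region 9 of muscle stood apart for the co-varying transcripts, which held 34.8% of its summed reads, against 4.4% to 19.4% in the other regions. It was also highest for dd_Smed_v4_1635_1_1 (115614 cpm), dd_Smed_v4_300_0_1 (69771 cpm), dd_Smed_v4_297_0_1 (46313 cpm), dd_Smed_v4_1_0_1 (5452 cpm), dd_Smed_v4_668_0_1 (2370.5 cpm) and dd_Smed_v4_2962_0_1 (2248 cpm). Region 9 of muscle was highest for dd_Smed_v4_4621_0_1 as well (9048 cpm, 73% of it from 1 cell) and lowest for dd_Smed_v4_1140_0_1 (363 cpm).

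Elsewhere in muscle, region 3 was highest for dd_Smed_v4_346_0_1 (1557 cpm) and dd_Smed_v4_130_0_1 (1239 cpm), region 2 for dd_Smed_v4_1258_0_1 (3058 cpm, 53% of it from 1 cell) and region 8 for dd_Smed_v4_82_0_1 (650.2 cpm).

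Region 9 of non-muscle cells was highest for 7 transcripts, with 94.2% to 98.3% of the reads of each from 1 cell: dd_Smed_v4_258_0_1 (68594 cpm), dd_Smed_v4_10_0_1 (6394 cpm), dd_Smed_v4_130_0_1 (3083 cpm), dd_Smed_v4_330_0_1 (7141 cpm), dd_Smed_v4_34_0_1 (4965 cpm), dd_Smed_v4_420_0_1 (1869 cpm) and dd_Smed_v4_82_0_1 (2281 cpm). Region 7 was highest for dd_Smed_v4_185_0_1 (8229 cpm), dd_Smed_v4_23_0_1 (8070.5 cpm), dd_Smed_v4_750_0_1 (11841 cpm) and dd_Smed_v4_668_0_1 (2507 cpm). Region 1 was highest for dd_Smed_v4_320_0_1 (13427 cpm), region 4 for dd_Smed_v4_346_0_1 (3366 cpm, 82.4% from 1 cell), region 10 for dd_Smed_v4_4621_0_1 (5529 cpm) and region 3 for dd_Smed_v4_996_0_1 (1892 cpm, 94.5% from 1 cell).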

How the results depend on the processing

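The number of members past the adjusted threshold was 0 for each slope and for their difference, and it remained 0 under every alternative scaling, tool and filter run, with thinned cells and with the cell number range as a covariate. The exceptions were the muscle slope when a region was left out in turn (0 to 20 members, with 20 without region 10), and cells of range C alone, an alternative chosen after seeing the data like all fits of 1 range (2 members in muscle and 1 in non-muscle cells). Of 100 members, 88 were shared with a list ranked by mean cpm, 73 with ratio limits of 0.5, 94 with the difference of mean logs, 98 with thinned cells, and 88, 90 and 89 with lists from ranges A, B and C alone. A fit with the region as a replicate block over the 9 regions that both classes share was added after seeing the data. In it the difference of slopes passed for 0 of the 100 and 1 of all transcripts. An unadjusted p under 0.05 was found for 0 members, against 611 of 15672 transcripts. The median difference over the 100 was -0.06 in this fit, against -0.10 in the main one. Deviations of the paired sums from the class means correlated at 0.02 to 0.07 within a region. Low as these values are, the non-muscle sum that matched a muscle sum best was that of its own region, except in region 5. The main test of the difference left this pairing out. Depth limits the cells without reads and the non-muscle sums of regions 3 and 4, with 3 cells each. The causes of the changes below were not tested.

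Of 737 muscle slopes of named transcripts under the alternatives, 680 kept their direction and side of the threshold, 11 passed it and 46 took the other sign. Of 249 non-muscle slopes and differences of named transcripts, 241 kept both, 1 passed and 7 took the other sign. In range B alone the muscle slopes with the other sign were -0.13 for dd_Smed_v4_1635_1_1, -0.095 for dd_Smed_v4_300_0_1, 0.041 for dd_Smed_v4_258_0_1, -0.12 for dd_Smed_v4_957_0_1, -0.077 for dd_Smed_v4_297_0_1, 0.012 for dd_Smed_v4_753_0_1, -0.15 for dd_Smed_v4_5257_0_1, -0.095 for dd_Smed_v4_185_0_1, -0.14 for dd_Smed_v4_23_0_1, -0.11 for dd_Smed_v4_750_0_1, -0.14 for dd_Smed_v4_1_0_1, -0.10 for dd_Smed_v4_668_0_1, -0.097 for dd_Smed_v4_4812_2_1, -0.17 for dd_Smed_v4_2962_0_1, 0.10 for dd_Smed_v4_1140_0_1, 0.065 for dd_Smed_v4_420_0_1 and 0.025 for dd_Smed_v4_996_0_1. In range C alone they were -0.17 for dd_Smed_v4_38_0_1, 0.071 for dd_Smed_v4_1999_0_1, -0.049 for dd_Smed_v4_130_0_1, -0.18 for dd_Smed_v4_731_0_1, -0.088 for dd_Smed_v4_34_0_1 and 0.033 for dd_Smed_v4_420_0_1, and the differences of slopes were -0.022 for dd_Smed_v4_750_0_1, -0.037 for dd_Smed_v4_2962_0_1 and 0.022 for dd_Smed_v4_420_0_1. In range A alone the muscle slopes were -0.0033 for dd_Smed_v4_957_0_1 and -0.10 for dd_Smed_v4_4621_0_1, the non-muscle slope was -0.063 for dd_Smed_v4_4621_0_1, and the differences were 0.079 for dd_Smed_v4_258_0_1 and -0.0011 for dd_Smed_v4_750_0_1. With the range as a covariate the muscle slopes were 0.0061 for dd_Smed_v4_258_0_1, -0.014 for dd_Smed_v4_957_0_1 and 0.00096 for dd_Smed_v4_420_0_1. With thinned cells they were 0.0059 for dd_Smed_v4_258_0_1, 0.0052 for dd_Smed_v4_753_0_1 and 0.00040 for dd_Smed_v4_996_0_1. With library size alone they were -0.0068 for dd_Smed_v4_15_0_1, -0.00061 for dd_Smed_v4_38_0_1, -0.0033 for dd_Smed_v4_112_0_1, -0.00076 for dd_Smed_v4_346_0_1 and -0.023 for dd_Smed_v4_130_0_1. With limma they were -0.018 for dd_Smed_v4_15_0_1, -0.081 for dd_Smed_v4_38_0_1, -0.027 for dd_Smed_v4_112_0_1 and -0.049 for dd_Smed_v4_130_0_1. Leaving out 1 region at a time, muscle slopes ranged from -0.052 to 0.013 for dd_Smed_v4_258_0_1, from -0.092 to 0.013 for dd_Smed_v4_330_0_1, from -0.058 to 0.0012 for dd_Smed_v4_1140_0_1 and from -0.033 to 0.0054 for dd_Smed_v4_996_0_1, and the non-muscle slope of dd_Smed_v4_320_0_1 from -0.19 to 0.31.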

Other observations

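Among the 78 transcripts outside the co-varying group, 39 of 3003 pairs reached a Pearson r of ln(cpm + 1) of 0.7 or more over 177 cells, and 19 transcripts took part in them. The highest was the pair dd_Smed_v4_344_0_1 and dd_Smed_v4_292_0_1 with an r of 0.95 (0.95 over muscle and 0.94 over non-muscle cells). It was followed by dd_Smed_v4_108_0_1 with dd_Smed_v4_156_0_1 (0.83) and dd_Smed_v4_62_0_1 with dd_Smed_v4_437_0_1 (0.81). These pairs were picked as the highest after all were computed, and the points share library, depth and total, so the values are a description only.

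The summed level of the 12 muscle markers correlated with the share of the 22 co-varying transcripts at an r of -0.31 over 115 muscle cells and 0.31 over 62 non-muscle cells. For the 12 epidermal lineage markers the values were 0.04 and -0.22, and for the 12 neoblast markers, 1 of which is a member, they were -0.27 and -0.13. Marker levels and the share of the 22 are taken from the same total of a cell, so these values are a description only.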
